A study of Mus musculus with 10 samples.

Results

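Glyceroneogenesis and glycerol handling were followed through 8 genes of glycerol supply, phosphorylation and export: Pck1, Pck2, Pcx, Pdk4, Gpd1, Gpd2, Gk and Aqp7. They were given as a list of symbols and looked up in a table of 52636 gene identifiers. All 8 were found and all 8 passed the filter on low counts, among 15927 tested genes. The list was chosen by function with the knockout-against-control differences in read counts already known, so its members count as selected on that contrast, and the differences between the groups below are a description of these genes and carry no test of their own.

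A fat cell stores fatty acids as triglyceride on a backbone of glycerol 3-phosphate. Between meals that backbone is made from pyruvate or lactate by glyceroneogenesis. Pyruvate carboxylase (Pcx) makes oxaloacetate, phosphoenolpyruvate carboxykinase (Pck1 in the cytosol, Pck2 in mitochondria) turns it into phosphoenolpyruvate, and glycerol 3-phosphate dehydrogenase (Gpd1) reduces the dihydroxyacetone phosphate that follows. Pyruvate dehydrogenase kinase 4 (Pdk4) keeps pyruvate away from oxidation. Mitochondrial Gpd2 oxidises glycerol 3-phosphate again, glycerol kinase (Gk) makes it directly from free glycerol, and the channel aquaporin 7 (Aqp7) lets glycerol leave the cell. White fat is known for high Pck1 and very low glycerol kinase, so glycerol freed by lipolysis mostly leaves the depot.

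Inguinal white fat, which lies under the skin, was taken for RNA sequencing from C57BL/6 mice aged 6 months. The 5 control and 5 knockout libraries, numbered 1 to 5 in each group, all came from mice with floxed Tcf7l2 alleles (F/F) on a 65% high-fat diet. The knockouts also carried the transgene written Adp-Cre, whose promoter the labels do not spell out, and the controls are labelled wild type although their titles read F/F. The diet lasted 16 weeks in one label field, 12 weeks in another and 4 months in the treatment text. Tcf7l2 is a transcription factor of the Wnt pathway. Its level was 9.16 to 11.4 CPM (read counts scaled to a common library size with TMM) in controls and 5.57 to 6.20 CPM in knockouts, so every library followed its label (exact permutation p = 0.0079, n = 5 per group, two-sided, the smallest this design can give). Totals ran from 14032866 to 17782073 counts per library. The fat cell marker Adipoq held at least 2297 CPM in every library.

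2 features of the libraries bear on all results. On the first principal component control 5 lay inside the range of the knockouts and knockout 1 at its far end. A score of intronic-type transcripts, the mean log2 CPM of 786 genes annotated as TEC or sense intronic, was 0.382 to 1.27 across the controls against 0.0562 to 0.464 across the knockouts (exact permutation p = 0.0238, n = 5 per group). The libraries numbered 1 to 5 by the submitters are the controls and 6 to 10 the knockouts, so genotype cannot be told apart from any handling that followed this order. The sample titles carry a different number for each library (7, 13, 16, 4, 3 in controls and 1, 6, 9, 17, 11 in knockouts). What these numbers stand for is not stated in the titles. No label states that every library is a different mouse, so the p-values cover the spread between these samples, which may be technical.

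RefSeq promoter windows on GRCm38.p6 were on hand for 7 of the 8 genes (10 windows), with none for Gpd1. The 250 bases before the start are shown for Pck1 and Gk, the genes with the largest difference in each direction, and for Pck2. Pck2 is the mitochondrial counterpart of Pck1 and the single gene of these 7 whose window held the TCF/LEF core. The Pck1 window is chr2:173152823-173153072 on the plus strand, the Gk window chrX:85776820-85777069 on the minus strand and the Pck2 window chr14:55540016-55540265 on the plus strand. Capitals mark a match to the cAMP response element core TGACGT (read on the other strand) in Pck1, the E-box CACGTG in Gk and the TCF/LEF core CTTTGA (read on the other strand) in Pck2.
Pck1: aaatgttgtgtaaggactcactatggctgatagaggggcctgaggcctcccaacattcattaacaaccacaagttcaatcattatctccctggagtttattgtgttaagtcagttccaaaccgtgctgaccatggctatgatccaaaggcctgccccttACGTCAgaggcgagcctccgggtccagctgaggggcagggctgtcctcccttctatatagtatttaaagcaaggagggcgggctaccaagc
Gk: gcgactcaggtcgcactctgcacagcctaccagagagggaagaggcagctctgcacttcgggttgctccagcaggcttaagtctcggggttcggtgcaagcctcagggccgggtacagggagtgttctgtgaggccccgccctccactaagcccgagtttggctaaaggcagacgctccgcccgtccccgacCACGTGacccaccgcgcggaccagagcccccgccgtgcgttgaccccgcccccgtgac
Pck2: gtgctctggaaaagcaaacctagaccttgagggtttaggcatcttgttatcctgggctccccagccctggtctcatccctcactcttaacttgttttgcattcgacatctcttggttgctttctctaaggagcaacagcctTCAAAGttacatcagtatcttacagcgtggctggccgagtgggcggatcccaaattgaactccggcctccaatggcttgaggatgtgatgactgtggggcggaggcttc

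The capitals lie at bases -91 to -86 before the Pck1 start, -58 to -53 before the Gk start and -109 to -104 before the Pck2 start. The Pck1 start used here is that of RefSeq, and its window runs past the GENCODE gene start at 173153048. The Pck1 element is well known as the site through which cAMP induces the gene in liver. Of 32851 windows of this length, on both strands, 6.47% held TGACGT, 6.02% held CACGTG and 13.8% held CTTTGA. The nuclear receptor half-site AGGTCA was in 14.0% of windows and, among the members, in both Aqp7 windows, which overlap and share a match. Its repeat, 2 copies of AGGTCA in a row with 1 base between them, which the half-site search also finds, was in 0.0335% of windows and in those of none of the 7 genes. The E-box was also in 1 of the Pcx windows, at bases -248 to -243. The windows of Gpd2 and Pdk4 held no match to these 5 motifs. These are matches of letters, and binding was not measured in the data used here.

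Pck1 (ENSMUSG00000027513, GRCm38 chromosome 2, 173153048 to 173159273, plus strand, protein-coding), which encodes the committing enzyme of glyceroneogenesis, was much lower in the knockouts. It stood at 1334, 1029, 951, 814 and 1063 CPM in control 1 to 5. In knockout 1 to 5 it stood at 415, 461, 444, 440.5 and 403 CPM. The groups were far apart: the lowest control lay well above the highest knockout. The level in knockouts was 41.7% of that in controls (log2 fold change -1.26, SE 0.111, from edgeR). The knockouts were also closer to each other than the controls were. Their highest-to-lowest ratio was 1.14 and their coefficient of variation 5.39%, against 1.64 and 18.4% in controls, with a counting error of at most 1.21%. Control 1 was the highest of all, and without any one library the log2 fold change stayed between -1.34 and -1.15.

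Pck2 (ENSMUSG00000040618, chromosome 14, 55540266 to 55551242, plus strand), the mitochondrial enzyme of the same reaction, showed no such gap. Its CPM were 23.7, 29.6, 27.4, 29.1 and 26.5 in the controls and 28.4, 24.6, 22.8, 28.2 and 20.3 in the knockouts, in library order. The ranges overlapped broadly, with control 1 below knockouts 1, 2 and 4 (log2 fold change -0.13, SE 0.0983). Per kilobase of exon, each library held 63.6 to 128 times as much Pck1 as Pck2 in controls and 33.3 to 45.3 times as much in knockouts. Such a ratio within a library does not depend on how libraries are scaled, but its size depends on the length given to each gene.

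Pcx (ENSMUSG00000024892, chromosome 19, 4510472 to 4621752, plus strand), which feeds oxaloacetate to both carboxykinases, did not pass the test, and its groups overlapped. It stood at 894, 788, 834, 728 and 818 CPM in control 1 to 5 and at 892, 1045, 928, 781 and 1100.1 CPM in knockout 1 to 5. Knockouts 2, 3 and 5 lay above every control, and knockouts 1 and 4 inside the control range (log2 fold change 0.22, SE 0.0943). The ratio of Pck1 to Pcx per kilobase was 1.76 ± 0.21 in controls and 0.642 ± 0.0986 in knockouts (SD, n = 5 each). Pck1 thus exceeded Pcx in every control and lay below it in every knockout.

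Pdk4 (ENSMUSG00000019577, chromosome 6, 5483351 to 5496309, minus strand) varied most between libraries of the same group, with a coefficient of variation of 26.2% in controls and 27.5% in knockouts. Its CPM were 214, 264, 286, 135 and 214 across controls 1 to 5 and 108, 199, 119, 173 and 199 across knockouts 1 to 5. Control 4 lay below knockouts 2, 4 and 5, so the groups overlapped (log2 fold change -0.48, SE 0.209). Skeletal muscle also makes Pdk4. The summed CPM of 8 muscle markers was highest in knockout 1 (705), knockout 3 (565) and control 5 (524) and between 24.1 and 119 in the other libraries, and 0 of the 8 passed the test. Knockouts 1 and 3 had the lowest Pdk4 of all 10 libraries. The part of muscle in the Pdk4 values was not tested.

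Gpd1 (ENSMUSG00000023019, chromosome 15, 99717515 to 99725005, plus strand), which makes glycerol 3-phosphate from the product of either glycolysis or glyceroneogenesis, was higher in the knockouts. It stood at 956, 915, 956, 816 and 871 CPM in control 1 to 5 and at 1007, 1336, 1299.7, 920.1 and 1398 CPM in knockout 1 to 5. Knockout 4 lay inside the control range and the other 4 above it (log2 fold change 0.40, SE 0.113). An antisense gene, Gm16537, shares 13.0% of the exonic bases of Gpd1, but it had 2 to 12 counts per library against at least 12070 for Gpd1.

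Gpd2 (ENSMUSG00000026827, chromosome 2, 57237635 to 57370719, plus strand), the mitochondrial enzyme that consumes glycerol 3-phosphate, leaned the other way. Its CPM were 39.5, 34.8, 37.9, 33.7 and 31.5 across controls 1 to 5 and 32.9, 31.9, 26.8, 29.1 and 30.3 across knockouts 1 to 5. The groups overlapped through control 5 (log2 fold change -0.23, SE 0.0775). The ratio of Gpd1 to Gpd2 per kilobase was 53.6 to 61.1 in controls and 67.6 to 107 in knockouts, although each gene alone overlapped between the groups. The pairs set in ratios here were picked with the contrast known, and other pairs were not examined. A gap between the groups in such a ratio is therefore a description only. A930012O16Rik shares 7.44% of the exonic bases of Gpd2 on the opposite strand and had 12 to 33 counts per library.

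Gk (ENSMUSG00000025059, chromosome X, 85701937 to 85776819, minus strand), the enzyme that white fat is known to lack in large part, was 1.92-fold higher in the knockouts (log2 fold change 0.94, SE 0.139). It stood at 35.7, 37.6, 36.4, 40.2 and 35.4 CPM in control 1 to 5, a narrow band. In knockout 1 to 5 it stood at 56.4, 96.8, 68.7, 53.4 and 79.9 CPM. Every knockout lay above every control, and the knockouts spread widely, with a coefficient of variation of 25.1% against 5.27% in controls. Counting error alone is 2.99% and 4.10% at these depths. Knockout 2 was the highest and knockout 4 the lowest of the knockouts.

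Aqp7 (ENSMUSG00000028427, chromosome 4, 41033074 to 41048139, minus strand), the glycerol channel, was lower in the knockouts. Its CPM were 227, 219.9, 208, 174 and 169.7 across controls 1 to 5 and 153, 185, 164, 128 and 151 across knockouts 1 to 5. Knockout 2 lay above controls 4 and 5, and the other knockouts lay below every control (log2 fold change -0.35, SE 0.106). Per kilobase, Aqp7 exceeded Gk 11.8-fold to 17.4-fold in controls and 5.19-fold to 7.42-fold in knockouts. Aqp7 is also made by capillary endothelium. Of 8 endothelial markers 6 were lower in the knockouts, 0 were higher and 2 did not pass. Among all tested genes 7.05% were called lower and 5.84% higher. The summed CPM of the 8 markers was 959 to 1201 in controls and 778 to 912 in knockouts. In bulk tissue, fewer cells of a type and less RNA per cell cannot be told apart, and the part of endothelial cells in the Aqp7 value was not tested.

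**Figure D1:**
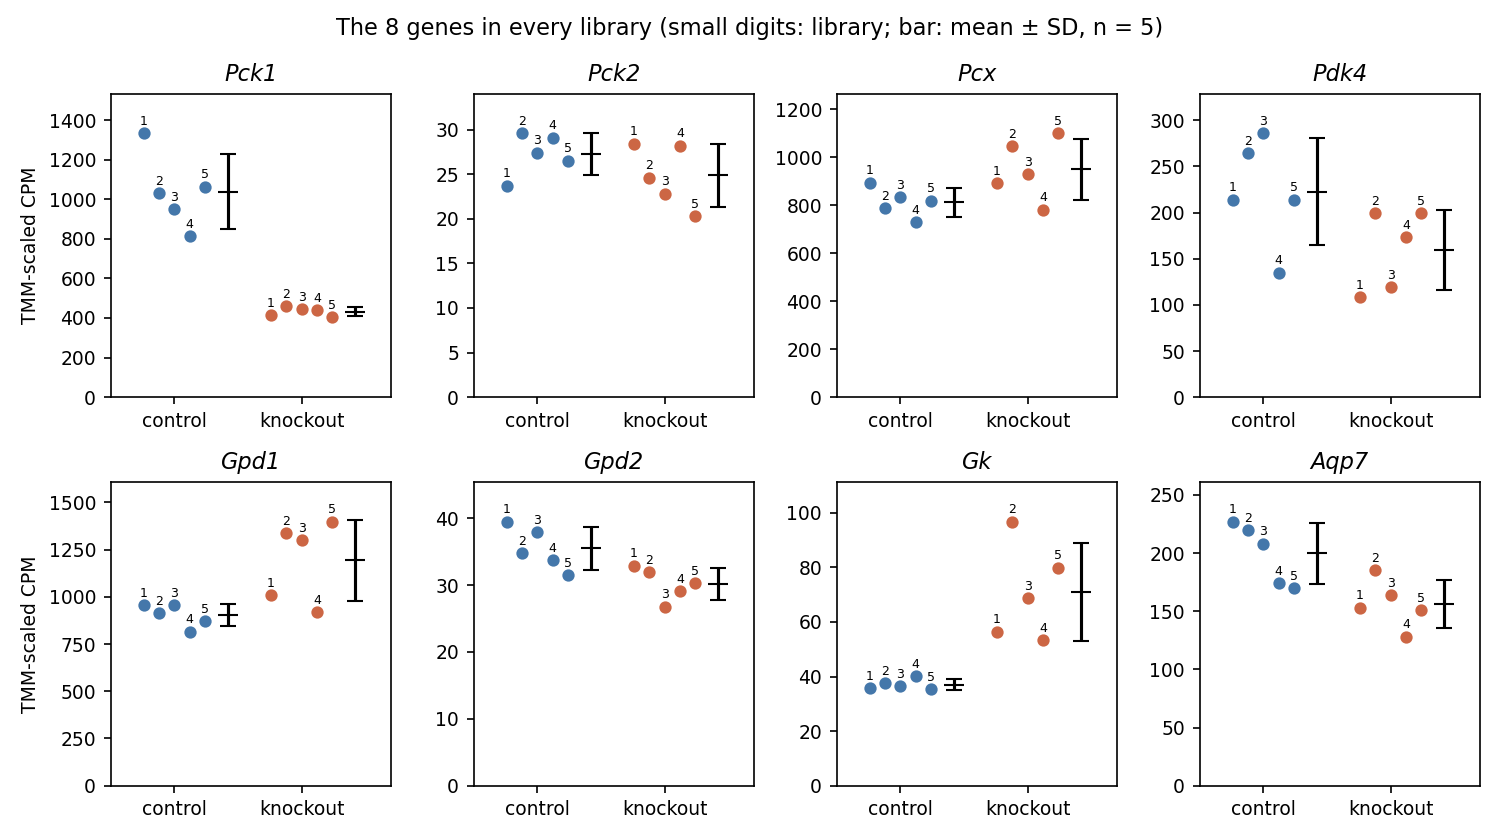
TMM-scaled CPM (linear axis from 0) of each of the 8 genes in the 5 control and 5 knockout libraries, with mean and SD beside the points. Only Pck1 (knockouts 403 to 461, controls 814 to 1334) and Gk (knockouts 53.4 to 96.8, controls 35.4 to 40.2) have groups that do not overlap.

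By edgeR's quasi-likelihood test over all tested genes, 2 of the 8 genes were called higher (Gk and Gpd1) and 2 lower (Pck1 and Aqp7) at an adjusted p below 0.05. Over all tested genes 12.9% were called, 5.84% higher and 7.05% lower. The groups did not overlap for 2 of the 8 genes (1 higher, 1 lower) and for 8.99% of all tested genes (4.55% higher, 4.45% lower). Since this contrast was known when the list was made, nothing is read from these shares. Leaving out each library in turn, Pck1 and Gk stayed past the threshold in 10 of 10 fits, Gpd1 in 3 and Aqp7 in 2. Pck2, Pcx and Pdk4 passed in 0 of 10 and Gpd2 in 1, the fit without control 5.

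With the intronic-type score added to the model, only Pck1 of the 8 stayed past the threshold (log2 fold change -1.27), among 49 genes in all. Gk stood at 0.84, Gpd1 at 0.29, Pcx at 0.08, Aqp7 at -0.24 and Gpd2 at -0.19, each nearer to 0 than without the covariate. Pdk4 moved away from 0, to -0.84, and did not pass. The score differs between the groups, so a fit that holds it fixed also gives up part of the contrast. Without control 5 and knockout 1, a choice made after seeing the data, 5 of the 8 were called, with Gpd2 added at -0.30.

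**Figure D2:**
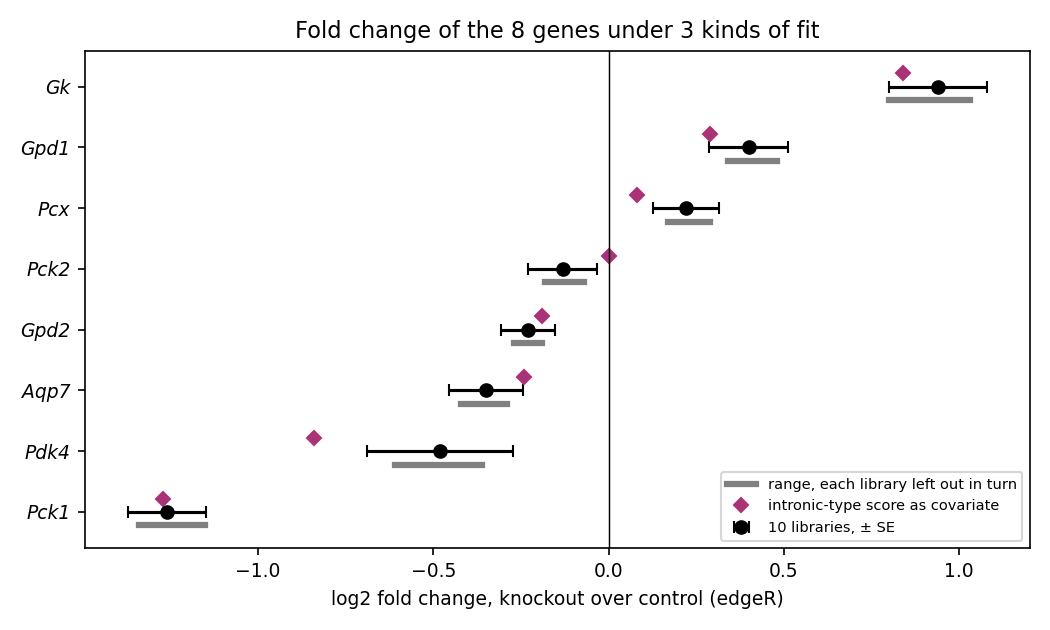
Log2 fold change of each gene, knockout over control, from the fit of all 10 libraries with its standard error (black), as the range over the 10 fits that leave out 1 library (grey) and with the intronic-type score in the model (diamonds). Pck1 stays between -1.34 and -1.15, while Pcx moves from 0.22 to 0.08 and Pck2 from -0.13 to 0.00 with the covariate.

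Within the knockout group 3 of the genes ordered the libraries alike. Gk, Gpd1 and Pcx all had their 3 highest values in knockouts 2, 3 and 5, then knockout 1, then knockout 4. In controls, Gpd1 and Pcx were lowest in control 4, where Gk was highest. Pck1 was also lowest in control 4 and, like Pcx, highest in control 1. In the knockouts its order differed from theirs, with the highest value in knockout 2 and the lowest in knockout 5. The intronic-type score was lowest in knockout 5 (0.0562) and knockout 2 (0.22), while knockout 3 had the highest score of its group (0.464) with a Gk level between those of knockouts 5 and 1. The summed CPM of 8 mature adipocyte markers was highest in knockouts 5 (42227), 2 (38980.2) and 3 (36436) and lowest in knockout 1 (31254) within that group. The part of either measure in these orders was not tested. With 5 libraries a group, no correlation was computed.

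**Figure D3:**
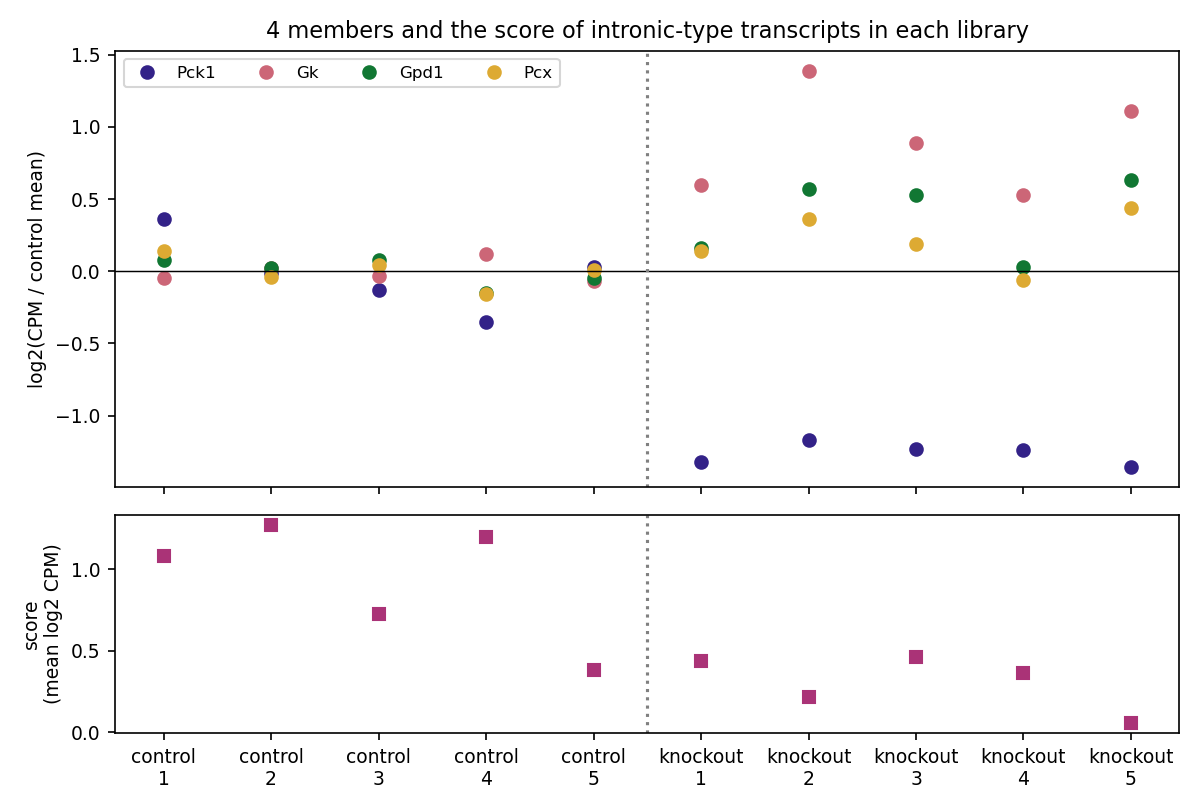
Upper panel, log2 ratio of CPM to the control mean for Pck1, Gk, Gpd1 and Pcx in each library; lower panel, the score of intronic-type transcripts (mean log2 CPM) in the same libraries. In the knockouts Gk, Gpd1 and Pcx are highest in libraries 2, 3 and 5, while Pck1 stays close to the same level in all 5.

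Levels of different genes can be set beside each other only per length, and CPM was therefore divided by the kilobases of annotated exon. In controls the order of medians was Gpd1 (309 CPM per kilobase), Pck1 (299.9), Pcx (172), Aqp7 (73.5), Pdk4 (61.0), Gpd2 (5.31), Gk (4.70) and Pck2 (3.51). The ranges of Gpd1 and Pck1 overlapped, as did those of Aqp7 and Pdk4 and of Gpd2 and Gk, and the other neighbours were apart. Glycerol kinase transcripts were thus near the bottom of the list in controls. In knockouts the order was Gpd1 (439), Pcx (195), Pck1 (128), Aqp7 (54.0), Pdk4 (49.2), Gk (8.87), Gpd2 (4.63) and Pck2 (3.15), and of neighbours only Aqp7 and Pdk4 overlapped. Pck1 passed from a range shared with Gpd1 to a place below Pcx, and Gk moved above Gpd2. The ratio of Pck1 to Gk was 45.7 to 84.4 in controls and 10.8 to 18.6 in knockouts. With the longest transcript as length, Gk (8.54) stood above Gpd2 (6.16) in the control means and Pck1 (381) above Gpd1 (316). Those orders, and the size of each ratio between genes, therefore depend on the length used.

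**Figure D4:**
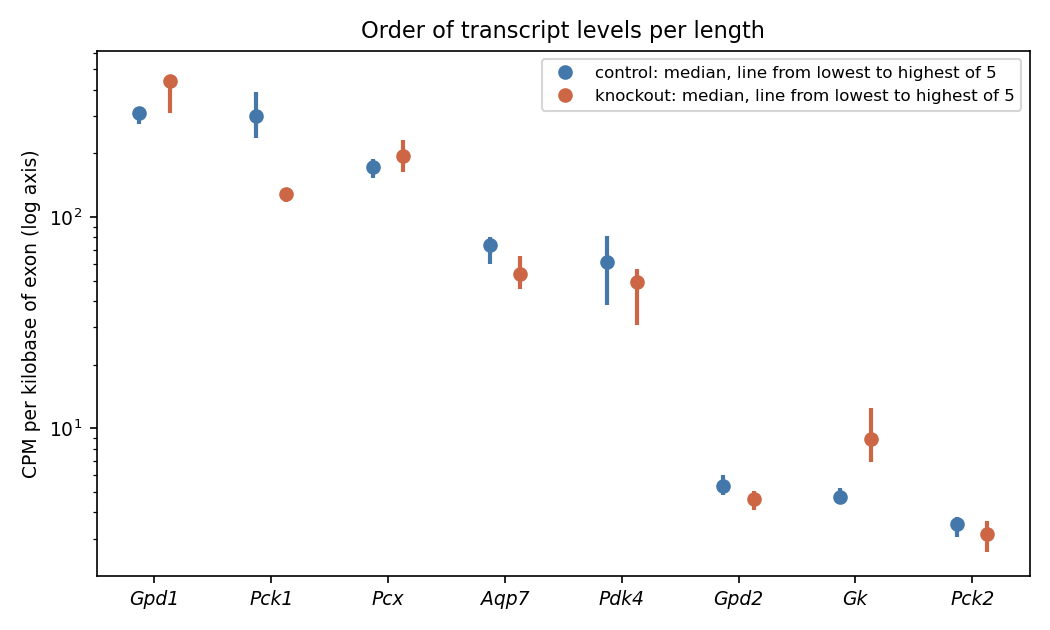
CPM per kilobase of exon on a log axis, median (point) and lowest to highest of 5 libraries (line) in controls and knockouts. In controls 5 genes lie between 61.0 and 309 and 3 lie between 3.51 and 5.31; in knockouts Pck1 lies below Pcx and Gk above Gpd2.

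Genes whose gene-centred log2 CPM differed least from that of Pck1 over the 10 libraries, among 12250 compared, were Nnat, Cfd and S100b. Their root mean square differences were 0.193, 0.211 and 0.227 on the log2 scale, where a gene with no change at all would be at 0.646. Nnat went from 512 to 234 CPM and Cfd, the adipsin gene, from 639.9 to 224 CPM. Among the nearest to Gk were Timm8a1 and Spc25, each at 0.159, against 0.506 for a flat gene. Timm8a1 went from 4.69 to 7.75 CPM and Spc25 from 13.4 to 21.6 CPM. With so many genes and 10 libraries, some will lie close to any pattern.

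Around the 8 genes, other genes of the same routes were counted in lists; among all tested genes 12.9% were called and the median log2 fold change was 0.00. Of 12 relatives in glycerol and triose phosphate metabolism 8 were tested, of which 2 passed as higher and 1 as lower, with 5 not passing (median log2 fold change 0.08). Aldoa, the aldolase that splits hexose into trioses, rose from 1102 to 1523 CPM (log2 fold change 0.47, adjusted p = 0.011). Tpi1, which interconverts the trioses, rose by 0.42 (adjusted p = 0.026). Aqp11, another aquaporin, stood lower (log2 fold change -0.50, adjusted p = 0.035), and Tpi1 and Aqp11 passed in 5 and 4 of the 10 fits that left out a library. Gpd1l, a close relative of Gpd1, stood at 49.4 and 49.8 CPM (adjusted p = 0.93), and Gk5 at 12.5 and 14.7 CPM (adjusted p = 0.065). Gk2 had 0 counts in all libraries, and Aqp3 and the Gk-like gene Gykl1 were too low to test. Aqp9, the glycerol channel of liver, stood at 1.25 and 1.26 CPM (adjusted p = 0.96).

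Pyruvate and lactate entry held 17 tested genes, 3 higher, 2 lower and 12 not passing (median 0.09). The monocarboxylate transporter Slc16a1, which carries lactate and pyruvate across the plasma membrane, stood between 121 and 144 CPM in controls and between 147 and 205 CPM in knockouts, with no overlap. It rose by 0.44 (SE 0.0838, adjusted p = 0.010). A second transporter of that family, Slc16a7, fell from 56.5 ± 5.17 to 41.5 ± 3.78 CPM (SD, n = 5; log2 fold change -0.45, adjusted p = 0.0084). The lactate dehydrogenase genes also parted. Ldha rose from 767 to 939 CPM (adjusted p = 0.026, 5 of 10 leave-out fits) and Ldhb fell from 31.1 to 19.5 CPM (log2 fold change -0.68, adjusted p = 0.0017). The pyruvate kinase gene Pkm rose from 404 to 509 CPM (log2 fold change 0.33, adjusted p = 0.021, 7 of 10 leave-out fits). Ldhb, Slc16a1 and Slc16a7 passed in all 10 leave-out fits. The other kinases of pyruvate dehydrogenase were near 0, with Pdk1 at 0.05 (adjusted p = 0.76), Pdk2 at -0.07 (adjusted p = 0.69) and Pdk3 at -0.21 (adjusted p = 0.18). The mitochondrial pyruvate carrier genes Mpc1 and Mpc2 stood at 0.12 and 0.24 (adjusted p = 0.50 and 0.081).

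Among 14 genes that move oxaloacetate and malate between compartments, Me2, a mitochondrial malic enzyme, was higher (30.2 to 35.8 CPM, log2 fold change 0.24, adjusted p = 0.026), 0 were lower and 13 did not pass (median 0.08). That call stood in 5 of 10 leave-out fits. The malate dehydrogenases Mdh1 and Mdh2 stood at 0.03 and 0.08 (adjusted p = 0.87 and 0.56), and the malic enzyme Me1 at 0.10 (adjusted p = 0.70). The citrate and dicarboxylate carriers Slc25a1 and Slc25a10 stood at 0.38 and 0.28 (adjusted p = 0.11 and 0.084). Of 8 tested gluconeogenesis enzymes in a further list, edgeR called 0, with 2 at an unadjusted p below 0.05, DESeq2 called 1 and limma-voom 0 (median 0.15). Aldoa and Tpi1, which also serve gluconeogenesis and were called higher, were counted with the glycerol relatives above. The count of 0 thus depends on how genes were assigned to lists. G6pc and Fbp1, which liver and kidney need to release glucose, were too low to test, at most 0.365 CPM on average in either group.

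Of 9 genes of triglyceride breakdown, the step that frees glycerol, 1 was lower, 0 were higher and 8 did not pass (median -0.06). Ces1d, a carboxylesterase with triglyceride hydrolase activity, fell from 835 ± 118 to 435 ± 64.9 CPM (SD, n = 5; log2 fold change -0.94, SE 0.119, adjusted p = 0.0013). Its groups did not overlap and it passed in all 10 leave-out fits. The main lipase genes Pnpla2 and Lipe stood at -0.04 and -0.09 (adjusted p = 0.86 and 0.42), and Mgll, whose enzyme releases the last fatty acid and with it glycerol, at 0.28 (adjusted p = 0.063).

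Pck1, Gk, Aqp7 and Pdk4 are known targets of PPAR receptors. Of 17 other tested PPAR targets of fat, the test called 1 higher and 3 lower, and 13 missed the threshold (median 0.10). Cidea (log2 fold change -1.12, adjusted p = 0.022) and Plin4 (-0.28, adjusted p = 0.042) were lower and Plin2 (0.39, adjusted p = 0.025) was higher, all genes of lipid droplet proteins. Other droplet genes of the list, Plin1 (-0.06), Plin5 (0.14) and Cidec (0.28), did not pass (adjusted p = 0.58, 0.67 and 0.052). Plin4 passed in 2 and Plin2 in 5 of the leave-out fits. The abundant targets Fabp4, Cd36 and Lpl stood at 0.13, -0.02 and 0.13 (adjusted p = 0.47, 0.90 and 0.40).

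Of 22 transcription factors and coactivators known to act at Pck1, edgeR called 0, with 6 at an unadjusted p below 0.05 (median -0.07). DESeq2 called 1, as higher, and limma-voom called 0. Pparg stood at 274 and 250.2 CPM (adjusted p = 0.35), Cebpa at 317 and 308 CPM (adjusted p = 0.70) and the glucocorticoid receptor gene Nr3c1 at 295 and 261 CPM (adjusted p = 0.10). Ppargc1a, a coactivator, stood at -0.57, Klf15 at -0.61 and Nr4a2 at -0.48 (adjusted p = 0.10, 0.16 and 0.11). In the other direction, Esrra stood at 0.27 and Nr1h3 at 0.17 (adjusted p = 0.07 and 0.12). Ppargc1a, Klf15, Nr4a2, Esrra and Nr1h3 were chosen here after their values were seen. Glucocorticoids lower Pck1 in fat. Of 11 genes of glucocorticoid activation and response, 1 was lower, 0 were higher and 10 did not pass (median -0.37). The lower gene was Hsd11b1, whose enzyme regenerates active glucocorticoid, at 113 ± 25.8 and 59.1 ± 10.1 CPM (SD, n = 5; log2 fold change -0.94, SE 0.148, adjusted p = 0.0044, 10 of 10 leave-out fits). The most abundant of the others, Tsc22d3, Nr3c1 and Sgk1, stood at -0.05, -0.17 and -0.15 (adjusted p = 0.90, 0.10 and 0.67). All 11 log2 fold changes were below 0, beside a median of 0.00 over all tested genes, but 10 were uncalled, with values down to -0.44 for Dusp1 (adjusted p = 0.20). The size of the list median depended on the fit. It was -0.17 with limma-voom, -0.69 with the intronic-type score, -0.19 without control 5 and -0.41 without knockout 5.

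**Figure D5:**
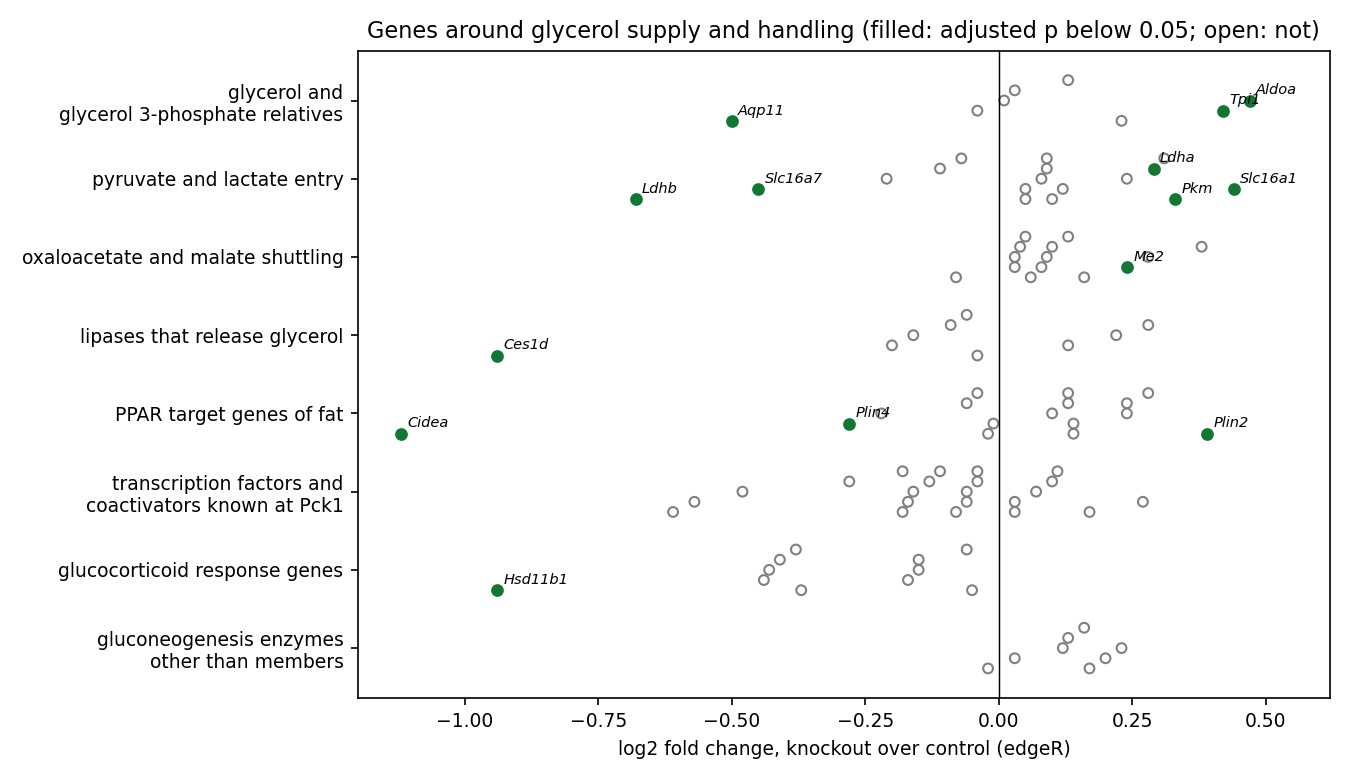
Log2 fold change, knockout over control, of tested genes in 8 lists around the 8 genes (1 gene is not drawn); each point is a gene, filled and named where the adjusted p is below 0.05, with vertical offsets for legibility only. Most genes lie close to 0, and of those drawn Cidea (-1.12), Ces1d (-0.94) and Hsd11b1 (-0.94) stand lowest.

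Markers of kidney and liver, which also make Pck1, were measured in the same libraries. The summed CPM of 5 kidney tubule markers was at most 0.919 in any library. That of 7 hepatocyte markers, led by Alb and Serpina1a, was 14.0 to 69.0 for the controls and 16.0 to 59.1 for the knockouts. Control 1, with the highest hepatocyte sum (69.0), also had the highest Pck1 (1334 CPM). Knockout 4, with the next highest sum (59.1), had 440.5 CPM of Pck1, inside the range of the other knockouts. The part of such tissues in the Pck1 value was not tested. By edgeR, 5 of 7 T cell and 3 of 5 B cell markers were higher in the knockouts, against 5.84% of all tested genes. DESeq2 called 5 and 0 of them, and limma-voom 0 of either list. Of 7 macrophage markers edgeR, DESeq2 and limma-voom each called 0, with 0 at an unadjusted p below 0.05, and their summed CPM was 2101 to 2707 in controls and 2182 to 2488 in knockouts. The T and B cell sums were highest in knockout 1, at 117 and 279.7 CPM. The other knockouts held 12.8 to 29.0 and 10.8 to 30.1 CPM, and the controls 8.58 to 21.5 and 5.79 to 18.1 CPM. The groups overlapped for each T and B cell marker. In knockout 1 the 8 genes took no extreme value of their group other than the lowest Pdk4 and the highest Pck2 and Gpd2. Brown adipocytes are known for more glycerol kinase. Of 6 of their markers 2 were higher (Elovl3 and Dio2), 1 was lower (Cidea) and 3 did not pass. Among all tested genes 5.84% were called higher and 7.05% lower. The 3 were Ucp1 at 0.94, Cox7a1 at 0.06 and Ppargc1a at -0.57 (adjusted p = 0.18, 0.77 and 0.10). The summed CPM of the 6 markers, which joins genes that moved in opposite directions, was 25.3 to 39.8 in controls. It was 32.6, 65.5, 38.7, 35.0 and 60.2 in knockout 1 to 5. Knockouts 2 and 5, which had the highest Gk, also had the highest sums. The part of such cells in the Gk value was not tested.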

How the data were processed

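Total RNA of 10 libraries of inguinal fat (5 control, 5 knockout) was sequenced after ribosomal RNA depletion with a stranded kit, per the labels' protocols. The authors deposited raw counts of reads per gene. Per the submitters' processing notes, the tools were STAR 2.5.2b, featureCounts 1.5.1 and DESeq2 1.16.0 and the build GRCm38. Annotation release, strand setting and multi-mapping rule: not given in the sources used here. Overlapping genes may therefore share reads.

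Symbols, positions and exon lengths came from GENCODE M21 on GRCm38 (52489 of 52636 identifiers matched). Counts were filtered with filterByExpr, which left 15927 genes, scaled by TMM and tested two-sided with the quasi-likelihood test of edgeR 4.0.16 in R 4.3.3, with Benjamini-Hochberg adjustment over all tested genes and a threshold of 0.05. The method was checked on simulated data with known changes. SE is the size of the log2 fold change divided by the square root of F. Alternatives were DESeq2 1.42.0, limma-voom 3.58.1, no filter, RLE scaling, an intronic-type score as covariate and leaving out each library. The 20 same-group library pairs differed by more than sampling noise (chi-square per degree of freedom 7.28 to 29.7). Each library was treated as 1 replicate, although such differences cannot show that libraries came from different mice. A floor of 3 counts was 0.172 to 0.205 CPM and covers counting error only. Replicate numbers follow record order and pair nothing.

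The members, lists and tests were chosen with earlier results of these data known. Named were the 8 members, Tcf7l2, from each list the called genes (up to 6) and up to 3 abundant uncalled ones, and the 3 genes nearest in pattern to Pck1 and to Gk; other list genes and markers named were added after their values were seen. Some genes that this rule names are not reported here.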

Additional observations from a re-analysis of the deposited data

How the results depend on the processing

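The number of called genes among the 8 was 4, and 2 to 5 when single libraries were left out. It was 1 with the intronic-type score in the model, which called 49 genes overall against 2053 without it. Over all genes the count ran from 537 (without control 2) to 3094 (without control 5), with 560 when control 1, 903 when control 4, 998 when knockout 2 and 885 when knockout 5 was left out, and was 3774 without control 5 and knockout 1 together. Among the 8 log2 fold changes 1 changed sign: Pck2, from -0.13 to 0.002 with the score. Aqp7 was not called by limma-voom (-0.35), and Pdk4 was called with no low-count filter (-0.45). RLE scaling changed no call of the 8.

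Counts called in the lists ran over the leave-out fits from 1 to 4 for glycerol relatives (1 without control 1, control 2, knockout 2 or knockout 5), 3 to 6 for pyruvate entry (3 without control 1, 2 or 4), 0 to 3 for malate shuttling (0 for each of controls 1, 2 and 4 and knockouts 2 and 5, 3 for knockout 4), 1 to 3 for lipases (2 without knockout 1, 3 without knockout 4) and 1 to 5 for PPAR targets (1 without control 1 or 2, 2 without control 4 or knockout 2 or 5). They ran from 0 to 2 for regulators of Pck1 (2 without control 5 or knockout 4) and 0 to 1 for gluconeogenesis (1 without control 5 or knockout 1), and stayed at 1 for glucocorticoid genes. With the score as a covariate they were 0 for glycerol relatives, malate shuttling, lipases and PPAR targets and 1 for pyruvate entry. DESeq2 called 2 for malate shuttling, 2 for lipases, 1 for regulators of Pck1 and 1 for gluconeogenesis, and with no filter 3 were called for malate shuttling and 2 for regulators. The causes were not tested. With the longest transcript as length, control means per kilobase were 381 for Pck1 (303 with all exons), 5.90 for Pck2 (3.49), 196 for Pcx (171), 8.54 for Gk (4.79) and 6.16 for Gpd2 (5.41). The Tcf7l2 log2 ratio stayed between -0.92 and -0.85. No paired analysis was possible because the labels give the groups no shared replicate numbers.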
